A study of Mus musculus with 13 samples.

Results

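In single nuclei ATAC-seq (snATAC-seq) of the mouse kidney, which reads open chromatin nucleus by nucleus, a small set of peaks was open in every main cluster although no transcript of the gene annotation began nearby. These constitutive peaks away from start sites numbered 704 of the 300755 peaks in the list. They were chosen by a readout rule. For each peak, the share of nuclei called open was taken in each cluster and sample, averaged over the 5 samples, and had to reach 5% in each of the 13 main clusters, and the peak edge had to lie more than 1 kb from any GENCODE transcript start on mm10. Of the 9478 peaks that met the 5% minimum at any distance, 8769 lay within 1 kb of a start and 5 lay on sequences with no annotated start. The peaks that lay more than 1 kb from a start but missed the minimum in at least 1 cluster numbered 257878.

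Whole kidneys of mice were profiled on postnatal day 0 (P0, 2 samples), at 3 weeks (P21, 1 sample) and at 8 weeks (P56, 2 samples), and the P21 and P56 samples together formed the adult group (n = 3), whose values are given in that order. No transgene, mutation or treatment is named for any group, and a sample label names a stage and a number without saying how many animals it holds. The strain of the snATAC-seq animals is not given in the sources used here, and the nuclei loaded were cleaned of debris, with no sort described. The 13 clusters are NP (progenitors of the nephron), Podo (podocytes of the glomerulus), PCT and PST (the convoluted and straight parts of the proximal tubule), LOH (the loop of Henle), DCT and CNT (the distal convoluted and the connecting tubule), PC and IC (principal and intercalated cells), Endo (endothelium), Immune, Stroma1 and Stroma2. The clusters NP_LOH and PT_out were left out by the rule. Open calls over the gene body and 2 kb on either side were highest in the named cluster for 20 of 20 marker genes, for example Slc12a3 in DCT. The samples held 3361 to 7129 nuclei and 16980853 to 43794155 open calls, and 477 of 27834 barcodes occurred in more than 1 sample. Doublets were not called here, and no step that removed them from the snATAC-seq nuclei is described in the sources used here. The deposited nuclei had been kept by, among other filters, their share of signal at promoters.

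Chromatin that stays open in every cell type is mostly found at the promoters of housekeeping genes, many of which are CpG islands, stretches that keep their CpG dinucleotides and are rarely methylated. Away from gene starts, the classes of shared open sites best known to biologists are sites of CTCF, the zinc finger protein that anchors chromatin loops with cohesin, and genes that RNA polymerase III transcribes, such as those of tRNAs. A tRNA gene carries its promoter inside the transcribed sequence, in an A box and a B box that the factor TFIIIC binds. Some promoters also appear to be distal because an annotation lacks their transcript.

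The sequences that carry each such feature are printed before their counts. The CTCF core was searched as CCANNAGNNGGC on both strands in the central 300 bp, and 78 of the 704 members held it. The members with a core that were open in the largest shares of nuclei are shown on the strand of the core, with the core in capitals and 15 bases on each side (mm10).
chr7:73618500-73618541, minus strand, near Gm44738: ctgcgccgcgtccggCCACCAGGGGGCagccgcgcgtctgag
chrX:75674381-75674422, plus strand, near Gm15065: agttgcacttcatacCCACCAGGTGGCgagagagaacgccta
chr7:38085018-38085059, plus strand, near Ccne1: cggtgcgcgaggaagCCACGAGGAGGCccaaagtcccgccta
chr7:101310775-101310816, plus strand, near Stard10: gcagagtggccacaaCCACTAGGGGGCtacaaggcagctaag
chr15:96709945-96709986, minus strand, near Gm38144: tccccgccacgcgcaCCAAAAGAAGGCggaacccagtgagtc

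The first of these, near Gm44738, was also the most even of all members across clusters, and the second lay 30604 bp from the nearest start, that of Gm15065 on chromosome X.

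A RefSeq tRNA gene was overlapped by 51 members, and 25 of these held more than 1. The tRNA genes are shown for some of the tRNA-bearing members with the largest open shares in which a gene matched the B box, searched as GGTTCGANTCC. Each gene is read 5′ to 3′ on its own strand, with the B box in capitals (RefSeq, mm10).
n-TDgtc9, tRNA-Asp, chr11:69040984-69041055, plus strand: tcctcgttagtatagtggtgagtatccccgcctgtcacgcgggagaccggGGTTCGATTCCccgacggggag
n-THgtg8, tRNA-His, chr3:96500366-96500437, minus strand: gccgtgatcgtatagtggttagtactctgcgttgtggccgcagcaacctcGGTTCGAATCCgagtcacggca
n-TLtag1, tRNA-Leu, chr7:120835479-120835560, minus strand: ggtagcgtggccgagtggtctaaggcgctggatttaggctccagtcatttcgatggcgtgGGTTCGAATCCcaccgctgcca
n-THgtg3, tRNA-His, chr2:122377363-122377434, minus strand: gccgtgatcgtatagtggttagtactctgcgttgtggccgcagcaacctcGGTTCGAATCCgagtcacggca

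The Asp gene lay in a member upstream of Aurkb, which encodes a mitotic kinase, that held 4 tRNA genes, for Asp, Gly, Pro and Trp. The His genes of the members on chromosomes 2 and 3 were printed identically, so their reads cannot be fully told apart.

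A further set was found by comparing members with each other. A family of 6 members on chromosome 6, of which 5 lay between 128760203 and 128839950 around Klrb1c, shared stretches of at least 100 bp at 90% identity. Their shared part resembled Rn4.5s, the gene of a small RNA of rodents that RNA polymerase III transcribes, which RefSeq places at chr6:47654921-47655094. The aligned stretches of the most open of them are shown in the sense of that gene.
chr6:128803014-128803108, minus strand, near Klrb1c: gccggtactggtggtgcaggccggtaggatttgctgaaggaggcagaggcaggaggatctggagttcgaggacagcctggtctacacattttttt
chr6:128764129-128764223, minus strand, near Gm43907: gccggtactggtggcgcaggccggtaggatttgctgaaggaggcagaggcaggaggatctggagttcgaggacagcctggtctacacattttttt
chr6:128838451-128838545, plus strand, near Gm44066: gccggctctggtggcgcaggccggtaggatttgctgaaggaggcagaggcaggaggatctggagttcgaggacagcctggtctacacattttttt

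These 3 stretches aligned to the gene over 95 bases, at 92.6%, 93.7% and 91.6% identity. The search for this sequence was added after the sharing among members had been seen.

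Base composition of the central 120 bases is shown for the 2 most open members and for the members called in the most clusters in each direction between stages, described further on. CpG dinucleotides are in capitals.
chr7:44305238-44305357, plus strand, near Clec11a: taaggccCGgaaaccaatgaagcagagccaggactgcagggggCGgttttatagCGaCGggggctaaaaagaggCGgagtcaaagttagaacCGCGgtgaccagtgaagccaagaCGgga
chr8:69716948-69717067, plus strand, near Zfp869: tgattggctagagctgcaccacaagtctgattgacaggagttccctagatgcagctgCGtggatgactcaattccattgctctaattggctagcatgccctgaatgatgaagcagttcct
chr9:123461908-123462027, plus strand, near Lars2: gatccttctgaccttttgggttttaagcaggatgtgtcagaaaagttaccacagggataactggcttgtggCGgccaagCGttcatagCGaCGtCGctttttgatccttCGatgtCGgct
chr6:51178624-51178743, plus strand, near Mir148a: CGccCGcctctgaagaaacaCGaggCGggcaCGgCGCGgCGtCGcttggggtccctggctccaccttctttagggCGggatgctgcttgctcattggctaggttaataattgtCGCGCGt

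The stretch near Clec11a held 8 CpG, that near Zfp869 held 1, that near Lars2 held 7 and that near Mir148a held 13.

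The members lay between the other classes of peak in base composition. Median GC content of the central 300 bp was 56.7% in members, 66.0% in constitutive peaks within 1 kb of a start and 46.0% in other peaks away from starts. The ratio of observed to expected CpG had medians of 0.52, 0.84 and 0.20 in the same order. A high CpG ratio, taken as at least 0.6 with a GC content of at least 50%, was found in 232 members, which is 33.0% (95% Wilson interval 29.6 to 36.5), in 84.1% of constitutive peaks near starts and in 0.816% of other distal peaks. Peaks are not replicates, so these shares were compared without a test, and each interval covers counting error only. Sequence was not used by the rule. Members were also wide, with a median of 952 bp against 1079 bp near starts and 394 bp in other distal peaks, so the fixed window of 300 bp was used for motifs.

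CTCF cores were found in 11.1% of members (95% Wilson interval 8.97 to 13.6), 2.71% of constitutive peaks near starts, 3.16% of other distal peaks and 3.21% of all peaks. The core lay within 50 bp of the peak centre in 34 of the 78 members with a core, which is 43.6%. This was so in 34.5% of constitutive peaks near starts and 28.0% of other distal peaks with a core. Cores were searched only in the central 300 bp, so many placed evenly would also lie that close. Whether cores sat nearer the centre than even placement gives was not tested. Members with a core were open in fewer nuclei than members at large, with a median mean share of 11.8% against 15.0%, and their share fell to 7.44% among the 242 members that reached 10% in every cluster.

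Several motifs of promoter factors were found in members at shares between those of the other classes. The SP motif GGGGCGGGG was found in 11.6% of members, 18.6% of constitutive peaks near starts, 1.04% of other distal peaks and 1.92% of all peaks. The NRF1 motif GCGCANGCGC, bound by a regulator of nuclear genes for mitochondria, was found in 4.83%, 8.58%, 0.103% and 0.418% in the same order. ETS sites (CCGGAAGT) were held by 2.13% of members, 7.33% of constitutive peaks near starts, 0.357% of other distal peaks and 0.60% of all peaks. NFY sites (CCAATCA) were held by 7.10%, 8.15%, 3.07% and 3.27%, and CREB sites (TGACGTCA) by 2.13%, 2.66%, 0.273% and 0.379%.

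In the central 300 bp, AP-1 sites and TATAAA were less frequent in members than in other distal peaks, and E-boxes were more frequent. Median GC content also differed, at 56.7% in members, 66.0% in constitutive peaks near starts and 46.0% in other distal peaks. No motif share, here or above, was matched for it, so these orders cannot be told apart from base composition. The AP-1 site TGANTCA was found in 7.53% of members, 3.34% of constitutive peaks near starts, 10.97% of other distal peaks and 10.5% of all peaks. Over the whole peak, where members are wider, AP-1 sites were in 22.6% of members and 15.5% of other distal peaks, so this direction turns with the window. TATAAA was found in 7.10%, 3.04%, 18.6% and 17.4%. E-boxes (CACGTG) were held by 8.24% of members, 8.64% of constitutive peaks near starts, 4.38% of other distal peaks and 4.62% of all peaks. YY1, searched as AANATGGCG, was found in 0.994% of members, 5.83% of constitutive peaks near starts, 0.260% of other distal peaks and 0.446% of all peaks. Its shorter form AAGATGGC was found in 1.56%, 4.95%, 1.496% and 1.58%. ZBTB33 (TCTCGCGA) was found in 0.426%, 1.88%, 0.0163% and 0.0785%, and ZNF143 (ACTACAATT) in 0.142%, 0.468%, 0.152% and 0.160%. The RFX and HNF1 motifs were found in no member. They were in only 0.0539% and 0.00997% of all peaks, too rare for their absence from members to be read. The shorter YY1 form and other overlapping motifs were counted separately.

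**Figure D1:**
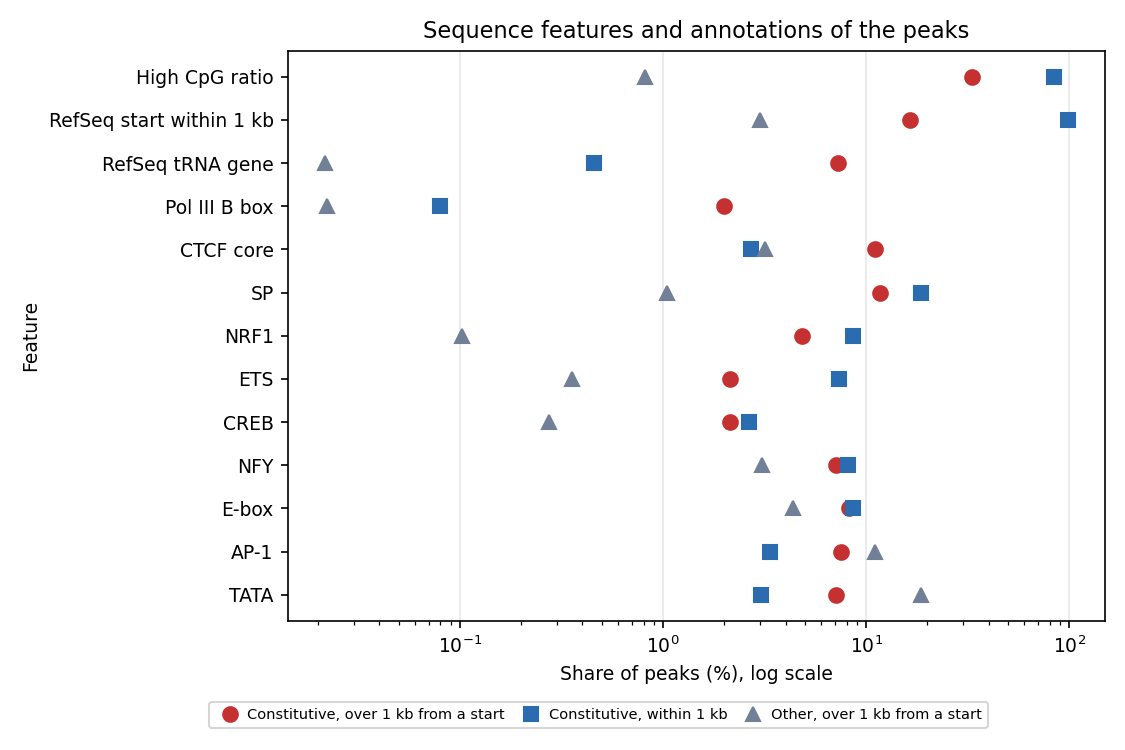
Share of peaks with each feature, in percent on a log scale, for constitutive peaks over 1 kb from a start (circles), constitutive peaks within 1 kb (squares) and other peaks over 1 kb from a start (triangles). Members held tRNA genes, the B box and the CTCF core at the highest shares of the 3 classes, and held high CpG ratios, SP and NRF1 motifs at shares between the other classes.

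Genes of tRNAs were more frequent in members than in either other class. They were overlapped by 7.24% of members (95% Wilson interval 5.55 to 9.40), 0.456% of constitutive peaks near starts and 0.0217% of other distal peaks. The B box itself was in the central 300 bp of 1.99% of members, 0.0798% of constitutive peaks near starts, 0.0221% of other distal peaks and 0.0296% of all peaks. Of the 425 tRNA genes on the sequences of the peak list, 84 lay in members, 63 in constitutive peaks near starts and 72 in the other peaks. The mitochondrial genome was among these sequences, with 3 constitutive peaks near starts and no member, so its tRNA genes are counted too. The tRNA genes in members have no GENCODE start, since the rule drops a peak that overlaps a gene with one. Members on chromosome 11 held such genes in 12 cases and those on chromosome 13 in 9. Members with a tRNA gene had a median mean share of 18.6% and a median ratio of the highest to the lowest cluster mean of 1.96, against 14.9% and 2.51 in members without one. A stretch of at least 80 bp like Rn4.5s at 90% identity was held by 7 members, by 1 constitutive peak near a start and by 3 other distal peaks, of 11 in all.

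A second annotation placed a start at some members. RefSeq, which the rule did not use, had a transcript start other than a tRNA within 1 kb of 116 members, or 16.5%, against 2.99% of other distal peaks. For starts of curated RefSeq transcripts the shares were 4.40% and 0.216%. Adding RefSeq starts to those of GENCODE left 588 members. Among the 10 most open members, 5 had a RefSeq start within 1 kb, and in 4 it lay inside the peak. In all, 329 members (46.7%) had no tRNA gene, CTCF core, high CpG ratio or RefSeq start, and these had a median CpG ratio of 0.38 and a median ratio between clusters of 2.88.

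By position, 304 members were distal, 176 lay in introns, 116 overlapped an exon and 108 lay up to 5 kb upstream of a start, in the order of classes that the study's methods give. Introns and distal sequence together held 68.2% of members, and 87.3% of other distal peaks. The nearest start belonged to a protein-coding gene for 433 members and to a lincRNA for 77. The peak lay upstream of that start in 346 cases and downstream in 358. Median distance was 5852 bp, 117 members lay within 2 kb of a start, 215 lay over 10 kb away and 1 lay over 100 kb away, near Gm44852 on chromosome 7. Chromosome 11 held the most members, 76, which is 10.8% of them against 8.80% of constitutive peaks near starts.

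Another member lay within 10 kb of 101 of the 704, in 45 groups. The largest group, 5 members at chr11:69408702-69419372, lay at Kdm6b, which encodes a demethylase of histone H3 lysine 27. These 5 had mean shares of 14.9% to 31.9%, and a RefSeq start of Kdm6b lay inside 3 of them. Ptma was nearest to 4 members, and Fos, Gm10277, Gm14488, Irf2bp2, Malat1 and Mir148a to 3 each. Fos and Malat1 were chosen from these after their values were seen. The 3 members at Fos, the immediate early transcription factor gene, had mean shares of 11.002%, 23.0% and 34.1%, and the last lay 17918 bp upstream of its start. Those at Malat1, a nuclear RNA found in most cells, had 10.9% to 17.6%.

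Lists of nearest genes, taken by how the gene name starts, were counted beside the other classes. Such lists can take in pseudogenes, for example Rpl10a-ps3. Genes named Rpl or Rps, for ribosomal proteins, were nearest to 6 members (0.852%). They were nearest to 0.844% of constitutive peaks near starts and 0.552% of other distal peaks. Proteasome genes were nearest to 3 members (0.426%), 0.433% near starts and 0.0547% of other distal peaks, and splicing genes to 3 (0.426%), 0.433% and 0.0543%. Translation factors were nearest to 2 (0.284%), against 0.627% and 0.116%, and oxidative phosphorylation genes to 2 (0.284%), against 0.821% and 0.130%. Zinc finger protein genes named Zfp were nearest to 10 members, or 1.42%, against 2.63% near starts and 0.550% in other distal peaks. Histone genes named Hist were nearest to 3 (0.426%), against 0.376% and 0.00853%. Genes named Mir, Snord, Snora or Snhg, of small RNAs and their hosts, were nearest to 22 members, or 3.13%, against 0.536% and 1.32%. By the annotated type, which takes in genes with other names, the nearest gene was a miRNA for 25 members and a snoRNA for 7.

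CTCF sites are well studied at imprinted genes, Hox clusters and protocadherins. Listed imprinted genes were nearest to 2 members (0.284%, against 0.101% of all peaks), Hox genes to 1 (0.142%, against 0.0522%) and protocadherins to 0, which allows a share of up to 0.426%, against 0.00898% of all peaks. The 8 members within 100 kb of a listed gene had mean shares from 38.8% near Trappc9 to 6.97% near Slc38a4. The member at chr6:4749126-4749680 lay in an intron 1720 bp from a start of Peg10, an imprinted gene derived from a retrotransposon, and was open in 10.2% of nuclei on average. That at chr11:96311276-96312607 lay in the Hoxb cluster and was open in 13.8%. Near the gamma protocadherins, a member in an intron of Diaph1 was open in 7.82% and held a CTCF core, as did the member near Slc38a4, while the other 6 held none, also over the whole peak. Of the remaining 4, 3 lay by Mcts2 or Plagl1, which are imprinted, and the fourth was the Trappc9 member.

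The open shares themselves chose the members, so they are given as a description. Averaged over the 13 clusters, a member was open in 6.33% to 52.6% of nuclei, with a median of 15.0%. The most open member, chr7:44304727-44305870, overlapped an exon of Clec11a, the gene of a secreted growth factor of the bone marrow, 1032 bp downstream of a start. Averaged over clusters, P0 samples had 56.7% and 61.2%, against 51.8%, 31.6% and 61.6% for adult, so the first P56 sample was the lowest. It was lowest in endothelium (23.7%) and highest in intercalated cells (64.7%).

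The next 3 members ranged less across clusters. The peak at chr8:69716519-69717498, 5795 bp upstream of Zfp869 and with a RefSeq start of that gene inside it, was open in 41.6% (DCT) to 54.3% (IC) of nuclei. That at chr15:85634490-85635357, where RefSeq starts D130051D11Rik, ranged from 41.2% to 51.6%. A peak in an intron of Sin3a, the scaffold of a histone deacetylase complex, at chr9:57073113-57074064, ranged from 38.4% in immune cells to 50.6% in DCT. The peak at chr8:126734849-126737407, near Gm45805, averaged 42.2% and ranged more widely, from 7.71% in immune cells to 64.4% in DCT. The others of the first 10, near Mnt, B430305J03Rik, Gm12974, Gm44738 and Trappc9, averaged 38.8% to 40.9%. Of the 10, 5 lay within 2 kb of a GENCODE start.

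The ratio of the highest to the lowest cluster mean was 1.25 to 10.7 over members, with a median of 2.42. The most even were those near Gm44738 (35.8% to 44.7%), D130051D11Rik and 4931414P19Rik (18.9% to 24.6%). The least even lay in an intron of Klhl3, which encodes the ubiquitin ligase adaptor that controls the salt transporter of the DCT. This peak, chr13:58066193-58068297, was open in 67.9% of DCT nuclei, 49.4% of CNT nuclei and 6.36% of Stroma2 nuclei. The next, 10785 bp from a start of the kinase gene Pim3, was open in 55.0% of PST and 6.26% of endothelial nuclei. The third, chr2:152739048-152740235, lay 2797 bp from Id1, an inhibitor of basic helix-loop-helix factors, and was open in 48.9% of PST and 5.57% of immune nuclei. A peak can thus meet the 5% minimum everywhere and still differ strongly between clusters.

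**Figure D2:**
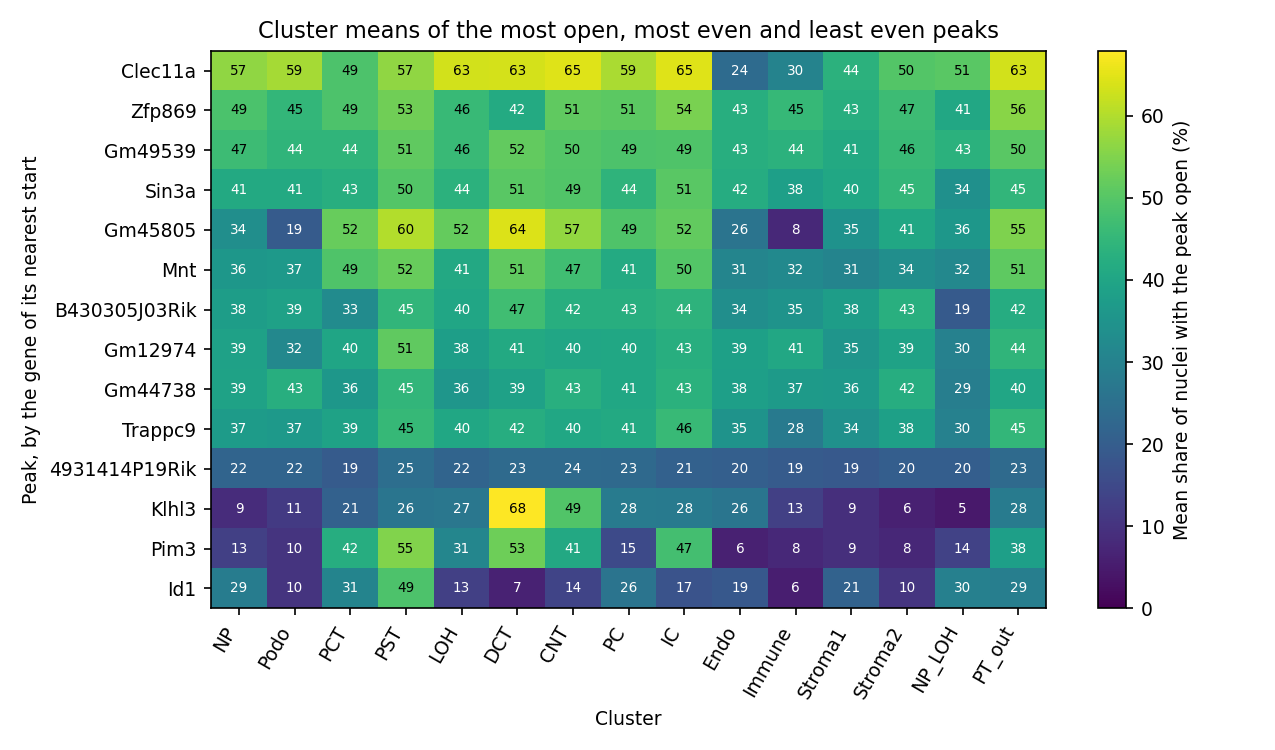
Mean share of nuclei with the peak open (percent, colour and printed value) in each of 15 clusters for the 10 most open members, the most even ones and the 3 least even ones, named by the gene of the nearest start. In the 13 main clusters, the Klhl3, Pim3 and Id1 peaks run from 5.57% to 67.9%, while the Gm44738 peak stays between 35.8% and 44.7%.

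Depth moved with the shares. The median share of members was 10.5% in immune cells and 18.8% in PST, clusters in which nuclei held medians of 2090 to 3677 and 5398.5 to 12173 open peaks by sample. Immune cells were the lowest cluster for 250 members and PST the highest for 278. With each nucleus thinned to 1000 open peaks, the order turned over, to a median of 3.09% in immune cells, the highest, and 2.25% in PST, the lowest. Only 13 members reached 5% everywhere at that depth, so the 5% minimum itself depends on depth. By sample, the median member was open in 17.0% and 18.5% of nuclei of the P0 samples, and in 12.4%, 9.24% and 18.1% of those of the adult samples, beside medians of open peaks per nucleus of 6203 and 6737, and of 4153, 3371 and 6178. The 704 members took 1.87% to 2.20% of the open calls of a sample, and constitutive peaks near starts 30.3% to 35.3%. In all 65 sums of a sample and a cluster, 193 members reached 5%.

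**Figure D3:**
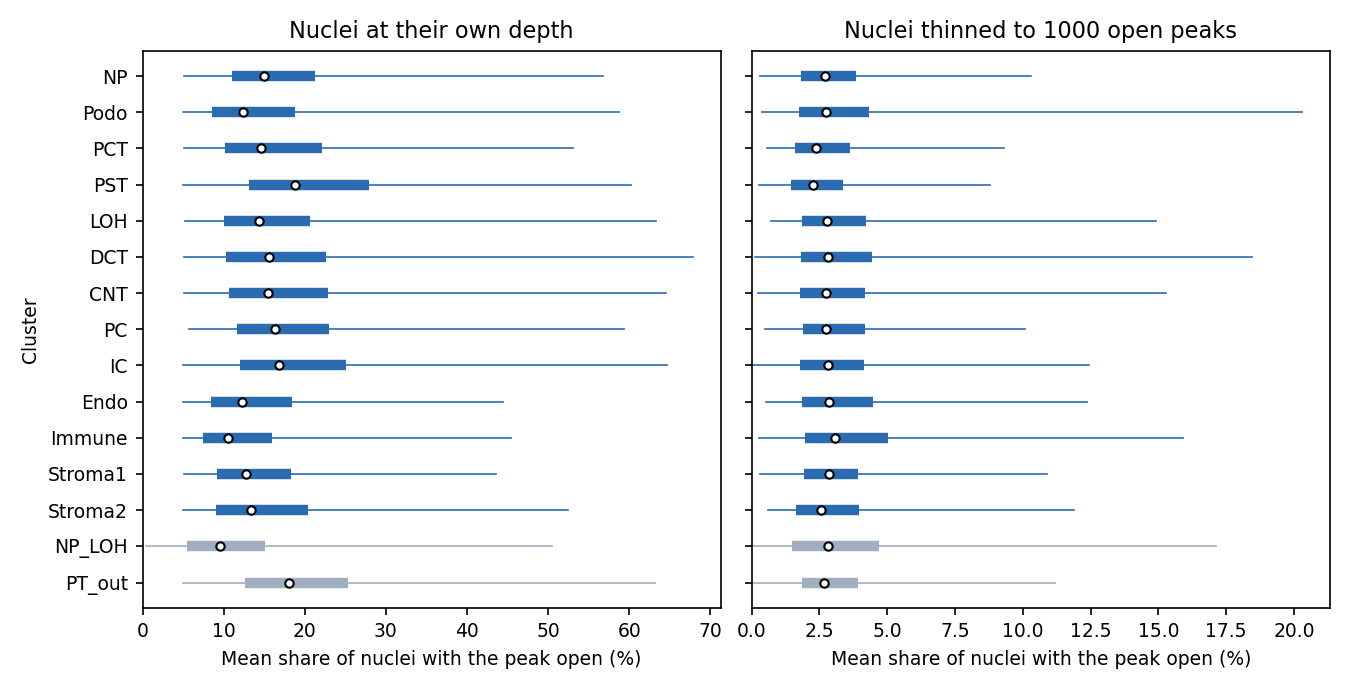
Mean share of nuclei with a member open (percent) in each cluster, for nuclei at their own depth and for nuclei thinned to 1000 open peaks. Points are medians over 704 members, thick bars the quartiles and thin lines the range, with the clusters left out by the rule in grey. Median shares run from 10.5% (Immune) to 18.8% (PST) unthinned, and from 2.25% (PST) to 3.09% (Immune) thinned.

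Just inside the minimum lay peaks near Txnip, Gm29560 and Gm17651, each at 5.00% in its lowest cluster, and just outside it peaks near Gm13549 (4.996%), Gm42458 (4.993%) and Gm48293 (4.992%). Just inside the distance lay peaks 1013 bp from Junb, 1022 bp from Mtfp1 and 1027 bp from D030034A15Rik, and just outside it peaks 989 bp from Myo15b, 986 bp from Cpeb4 and 981 bp from Ptma.

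The clusters left out gave nuclei that the rule had not used, from the same samples. All 704 members reached 5% in PT_out, against 10.6% of all peaks. In NP_LOH, which held 0 and 1 nuclei at P0 and was averaged over the 3 adult samples, 564 members (80.1%) reached 5%, against 5.83% of all peaks. The lowest of the 704 there were the members near Igf2bp3 and Gm14513, both at 0.483%. Members had been kept for a mean of at least 5% in similar cells, so these counts are not independent of the level that the rule required.

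The difference between birth and adulthood was not itself used by the rule, which averaged over the 5 samples. That mean can still keep a member through its higher stage, or drop a peak that nearly closes at either stage. The stage counts of members are thus not independent of the rule. Sums of open calls were compared within each cluster between P0 (n = 2) and adult (n = 3) by edgeR's quasi-likelihood test, with Benjamini-Hochberg adjustment at 0.05 over all peaks tested in that cluster. Nothing in the labels says whether samples came from separate animals, so p-values measure the spread between these samples. Of 9152 pairs of a member and a cluster, 7849 passed the filter on low counts, and in 5 clusters (PCT, LOH, PC, Endo and Stroma2) all 704 members did. A filter can keep a member for its higher group, so counts over the 13 clusters together cover only the pairs that passed, while those in PCT, LOH and Stroma2 cover every member.

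Over the 13 clusters, 1287 pairs were called higher in adult, or 16.4% of those tested, where 16.0% of all tested peaks were. Higher at P0 were 391 pairs, or 4.98%, where 18.0% of all peaks were. In PCT, 120 members were higher in adult and 28 at P0 (17.0% and 3.98%), against 16.3% and 17.6% of all peaks. In LOH, 283 were higher in adult and 41 at P0 (40.2% and 5.82%), against 24.4% and 29.9%. In Stroma2, 230 and 30 were called (32.7% and 4.26%), against 23.7% and 26.5%. Calls at P0 outnumbered adult calls in CNT and PST alone. In CNT, 43 were higher in adult and 54 at P0 of 694 tested (6.20% and 7.78%, against 10.4% and 12.2% of all peaks). In PST, these were 31 and 33 of 702 tested (4.42% and 4.70%, against 9.04% and 6.99%). Of constitutive peaks near starts, which met the same 5% minimum, 9.23% were higher in adult and 3.12% at P0 over the 13 clusters. Their shares were 39.5% and 3.67% in LOH, 5.11% and 1.22% in PCT, and 20.1% and 3.98% in Stroma2. Median log2 changes in LOH (adult over P0) were 0.43 for members, 0.44 for constitutive peaks near starts and -0.11 for all peaks.

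These counts moved with depth and with single samples. In LOH, nuclei of the P0 samples held medians of 6567 and 7430 open peaks, and those of the adult samples 2496 to 4477. With nuclei thinned to 1000 open peaks, 44 members were higher in adult and 56 at P0 of 647 tested in LOH (6.80% and 8.66%, against 12.3% and 12.2% of all peaks), and the median change was -0.06. In PCT the thinned counts were 14 and 23 (1.99% and 3.27%, against 6.99% and 5.52%). In Stroma2 they were 47 and 20 of 547 tested (8.59% and 3.66%, against 10.4% and 9.77%). Over the 13 clusters the pairs tested fell to 3061, and 119 were higher in adult and 105 at P0 (3.89% and 3.43%, against 6.77% and 6.06%). After thinning, P0 calls thus outnumbered adult calls in LOH and PCT, and adult calls outnumbered P0 calls in Stroma2 and, by 53.1% of calls against 76.7%, over the 13 clusters. Without the first P0 sample the adult calls were 347 over the 13 clusters, 83 in LOH, 16 in PCT and 75 in Stroma2, without the second P0 sample 438, 133, 32 and 68, and without the first P56 sample 230 in PCT. Of all peaks, 4.96% over the 13 clusters, 11.4% in LOH, 5.78% in PCT and 7.63% in Stroma2 were higher in adult when the first P0 sample was left out. These shares were 5.33%, 12.7%, 6.01% and 7.46% with the second left out, and 21.2% in PCT with the first P56 sample left out. Without TMM scaling, which moved the median log2 change of all peaks from 0.02 to -0.22 in PCT and from -0.11 to -0.41 in LOH, the counts were 78 higher in adult and 73 at P0 in PCT (11.1% and 10.4%, against 11.5% and 21.3% of all peaks), and 184 and 100 in LOH (26.1% and 14.2%, against 17.2% and 36.0%). With no filter on low counts, adult calls made up 48.6% of members' calls over the 13 clusters, against 76.7%. Of 9152 pairs, 867 were higher in adult and 918 at P0 (9.47% and 10.03%, against 2.91% and 5.95% of all peaks). In Stroma2 the direction turned as well, with 63 members higher in adult and 83 at P0 (8.95% and 11.8%, against 3.76% and 13.5%).

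**Figure D4:**
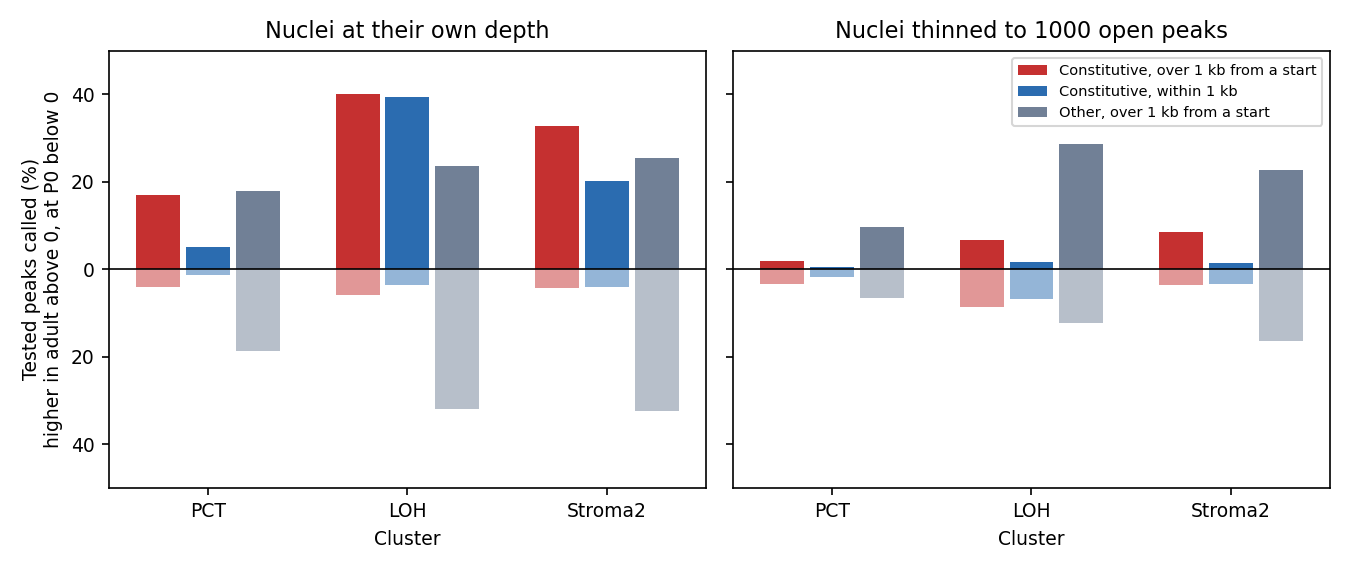
Percent of tested peaks called higher in adult (above 0) or at P0 (below 0, paler) in PCT, LOH and Stroma2, for members (red), constitutive peaks within 1 kb of a start (blue) and other peaks over 1 kb from a start (grey), at the nuclei's own depth and thinned to 1000 open peaks. In LOH members go from 40.2% adult and 5.82% P0 to 6.80% and 8.66%.

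Members were tested in unequal numbers of clusters, and 197 were tested in all 13. Members with a tRNA gene had 116 adult and 11 P0 calls in 598 pairs tested, and those without one 1171 and 380 in 7251, beside the 16.0% and 18.0% of all tested peaks given above.

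Members were ranked by clusters called among those whose called clusters all had the same direction, which left out the 62 called in both directions. The members higher in adult in the most clusters had features in common. They were narrow, at 493 to 692 bp, all 5 were lowest in endothelium, as were 114 of the 704 members, and highest in PST, as were 278, their CpG ratios were 0.87 to 1.16, and 3 of the 5 had a stretch of at least 200 bp at 90% identity elsewhere in the genome, against 35 of 704 members (4.97%) and 4.04% of constitutive peaks near starts. Reads from such copies may not be placed with certainty. Shares also move with depth, and adult nuclei held medians of 2099 to 2441.5 open peaks in endothelium and 5398.5 to 12173 in PST. The lowest and highest clusters of these peaks thus cannot be told apart from depth. No member matched the mitochondrial genome. The printed Lars2 stretch resembles ribosomal RNA of the large subunit, as judged from general knowledge and not from a comparison of sequences. Whether the 5 peaks match ribosomal DNA, or lie in regions that are commonly left out for unreliable mapping, was not tested.

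The first, chr9:123461623-123462314 in an exon of Lars2, the mitochondrial leucyl-tRNA synthetase gene, was higher in adult in 12 of 13 clusters tested. In Stroma1 it had, in CPM (open calls relative to all those of a sum), 11.2 and 14.3 at P0, 64.6 at P21, then 74.0 and 70.8 at P56. Every adult sample lay above both P0 samples, and the log2 change was 2.34 ± 0.25 (SE). Its P0 samples averaged under 5% in 1 cluster, so the rule kept it there through the adult samples, and no p is given. At chr11:109011745-109012277, near Gm11668, the values in Stroma1 were 18.6 and 23.9 CPM at P0, against 71.4, 104 and 98.8 CPM in adult, again without overlap. Its log2 change was 2.02 ± 0.20 (SE), and it was also called in 12 clusters. Thinned, this change was 1.66 and was not called, and the 2 peaks were called in 2 and 4 clusters. The peaks named here and in the next paragraphs were chosen by their stage calls. The cluster whose CPM values are printed is that of each peak's smallest adjusted p, so no p is given for these changes. A lack of overlap between stages is thus a description, and no share over all peaks is given for it.

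The peak at chr5:146261084-146261576 in an intron of Cdk8, the gene of the Mediator kinase, was called in 11 clusters. In Stroma2 it had 6.96 and 10.2 CPM in the P0 samples and 50.1, 31.4 and 49.0 CPM in the adult samples, so the groups did not overlap. The peaks near Filip1l and Gm25352 were called in 9 clusters each. The Filip1l peak averaged 7.76% over the 5 samples in endothelium, its lowest cluster, where its log2 change was 2.36. The rule may thus have kept it through the adult samples, as it did the Lars2 peak. The same may hold for the Cdk8 peak, whose log2 change in immune cells was 2.55 and not called. Their changes are a description. Over the clusters called, the log2 changes of these 5 peaks ran from 1.02 to 2.37, and after thinning they were called in 1 to 4 clusters.

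The 5 members called higher at P0 in the most clusters each averaged under 5% over the adult samples in several of the 13 clusters. The rule kept them through the P0 samples, in which they are high, so their changes are a description and no p is given. Called in the most clusters, 10 of 12 tested, was chr6:51178299-51179070, a distal peak 90840 bp from Mir148a. In podocytes it had 60.5 and 75.8 CPM in the P0 samples and 15.6, 12.6 and 8.25 CPM in the adult samples, with no overlap. The log2 change was -2.51 ± 0.32 (SE). Its mean share over clusters was 25.7% and 31.0% at P0 and 9.06%, 3.89% and 5.48% in adult. In endothelium, where it was open in the most nuclei (27.9%), the change had the other sign, 0.52 ± 0.21, and was not called. The neighbouring member at chr6:51172756-51173936 was higher at P0 in 6 clusters.

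The member at chr6:49217701-49218474, 2744 bp upstream of Igf2bp3, a fetal RNA-binding protein gene, was higher at P0 in 8 of the 10 clusters tested. In LOH its values were 27.8 and 31.7 CPM in the P0 samples and 6.40, 1.06 and 2.05 CPM in the adult samples. All adult values lay below the P0 values, and the log2 change was -3.30 ± 0.37 (SE). Its mean share over clusters was 17.0% and 20.2% at P0 against 1.66% to 5.03% in adult.

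A member at chr13:22050634-22051641, which holds a serine tRNA gene beside histone genes, was higher at P0 in 8 clusters, with 34.2 and 32.7 CPM in LOH at P0 and 7.04, 6.34 and 4.56 in adult. The members near Las1l, on chromosome X, and Gm49737 were higher at P0 in 9 and 8 clusters. In NP, the Las1l peak had 37.6 and 36.6 at P0, and 8.65, 6.09 and 27.1 in adult, so the second P56 sample lay close to P0. NP held 1032 and 1005 nuclei at P0 but only 52, 90 and 53 in adult, which limits every stage call in NP. What the adult nuclei named NP are was not tested. Single P0 samples moved the number of clusters called. Without the first, Cdk8 was called in 7, Las1l in 4 and Gm49737 in 5, and without the second Las1l was called in 5, Igf2bp3 in 5 and the serine tRNA member in 4. After thinning these 5 peaks higher at P0 were called in 2 to 4 clusters. In the cluster of the smallest adjusted p, Igf2bp3 and the serine tRNA member were tested after thinning and kept their direction, and the other 3 could not be tested there.

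**Figure D5:**
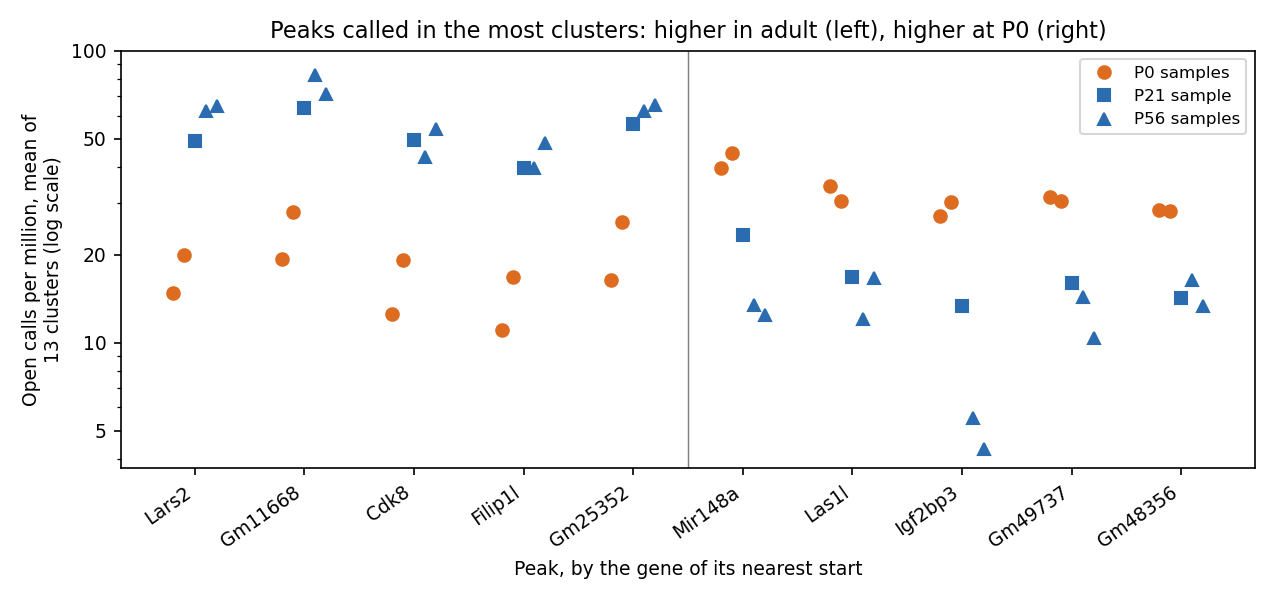
CPM of open calls, averaged over the 13 clusters (log scale), in each sample for the 5 members higher in adult (left) and the 5 higher at P0 (right) in the most clusters, named by the gene of the nearest start. P0 samples are circles, the P21 sample a square and the P56 samples triangles. The 10 peaks were chosen by their stage calls, so the lack of overlap between the 2 stages is a description.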

How the data were processed

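The data are snATAC-seq of nuclei from whole kidneys, in 5 samples. The authors aligned reads to mm10 with Cell Ranger ATAC 1.1.0, clustered nuclei with SnapATAC, named the clusters from marker genes, and pooled the nuclei of a cell type for MACS2 and merged the resulting peaks. The counts used here are sums of open calls from the deposited matrix, which the authors binarized and did not scale for depth. The deposited peak list gives positions in bp, which are no score. scRNA-seq files were not used here. Shares were averaged over samples per cluster. Intervals cover counting error only.

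Distances and elements came from GENCODE M21, and RefSeq starts, tRNA genes and sequences from the RefSeq annotation of GRCm38.p6. Motifs were searched on both strands of the central 300 bp. BLAST+ 2.17.0 compared members with each other and the genome. Sums of at least 20 nuclei were tested with edgeR 4.0.16 in R 4.3.3 (TMM, BH at 0.05, and filterByExpr set to 10 open calls per sum and 15 in total). DESeq2 1.42.0, other scalings, filters, depths and samples were alternatives, and the test was tried on simulated data. Other steps used Python 3.11.15. Stage numbers share only a number across groups, so samples were not paired.

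Members and lists were chosen with earlier results of these data known. Named members were the 10 most open, the 3 most and 3 least even, the 5 called in the most clusters in each direction, those at the edges of the rule and those within 100 kb of listed imprinted, Hox or protocadherin genes. The 5 in each direction came from members whose called clusters all had that direction. The sequence of a further tRNA gene is not reported here.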

Additional observations from a re-analysis of the deposited data

Results flagged for a closer look

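The member chr2:152739048-152740235, near Id1, changed in opposite directions in different clusters. In PCT it had 31.7 and 34.1 CPM of open calls at P0 and 65.3, 46.6 and 67.0 in adult, a log2 change of 1.06. In LOH it had 32.1 and 31.7 at P0 and 24.9, 10.6 and 10.7 in adult, a log2 change of -0.97. It was also called in CNT (-1.40), PC (-0.61) and Endo (0.67). In PCT and in LOH every adult sample lay on the same side of both P0 samples, which is given as a description. The difference between these clusters was not tested.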

How the results depend on the processing

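Members numbered 3504 at a 2% minimum, 242 at 10%, 401 beyond 5 kb, 13 with nuclei thinned to 1000 open peaks, and 590 to 808 without 1 sample each. CTCF cores were held by 22.2% over the whole peak (10.3% of constitutive peaks near starts, 4.22% of other distal peaks), 19.9% with a looser core (14.7% and 5.89%) and 7.44% at the 10% minimum. High CpG ratios were found in 28.7% over the whole peak and 50.4% at 10%, and tRNA genes in 12.8% at 10%. Introns and distal sequence held 77.0% by peak centre and 88.8% beyond 5 kb. Members at 5% in both NP_LOH and PT_out numbered 528 to 573 without 1 sample each. Over the 13 clusters, calls higher in adult were 810 with DESeq2, 119 thinned and 692 with equal numbers of nuclei, and 347 to 1837 without 1 sample each. Calls higher at P0 were 238 with DESeq2, 918 with no filter and 105 thinned, and 188 to 496 without 1 sample each. In PCT, adult calls were 78 without TMM, 308 with no filter, 14 thinned, 74 with equal nuclei and 16 to 230 without 1 sample, and P0 calls were 73 without TMM, 8 with no filter, 57 with equal nuclei and 7 to 40 without 1 sample. In LOH, adult calls were 184 without TMM, 141 with no filter, 44 thinned and 83 to 378 without 1 sample, and P0 calls were 25 with DESeq2, 100 without TMM, 26 with no filter, 78 with equal nuclei and 21 to 47 without 1 sample. In Stroma2, adult calls were 127 with DESeq2, 63 with no filter, 47 thinned, 108 with equal nuclei and 68 to 287 without 1 sample, and P0 calls were 13 with DESeq2, 46 without TMM, 83 with no filter, 15 with P56 alone as adult and 9 to 41 without 1 sample. Calls over all peaks moved too. Over the 13 clusters, 10.2% of all peaks were higher in adult and 10.8% at P0 with DESeq2 (7849 member pairs tested), 2.91% and 5.95% with no filter (9152), 6.77% and 6.06% thinned (3061), and 13.1% and 14.1% with equal nuclei (6496). With no filter they were 11.2% and 5.85% in PCT, 6.01% and 13.3% in LOH, and 3.76% and 13.5% in Stroma2. In PCT and LOH every member was tested under these settings, except 647 in LOH thinned, and in Stroma2 547 were tested thinned and 693 with equal nuclei. With equal nuclei, all peaks were at 16.5% and 16.6% in PCT, 23.4% and 27.2% in LOH, and 14.1% and 17.2% in Stroma2. With DESeq2 they were at 15.2% and 17.2% in LOH, and 15.4% and 18.5% in Stroma2. Higher at P0 in Stroma2 were 28.2% of all peaks without TMM and 22.6% with P56 alone as adult. The causes of these changes were not tested. A lone P0 sample was assumed to vary like the others. With the replicate number as a block, 1286 and 373 pairs were called (16.4% and 4.75%, against 15.1% and 17.1% of all peaks). But the difference between the 2 P0 samples and that between the 2 P56 samples correlated over peaks at only -0.02 to 0.15 by cluster. Samples of the same number share only that number. No change of the 10 named members reversed where it could be fitted, but after thinning 4 of the 10 could be fitted (Gm11668, Cdk8, Igf2bp3 and Gm48356). Depth limits every share, since an unsequenced site counts as closed.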

Other observations

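Besides the members like Rn4.5s, the largest family by shared sequence held 12 members on 9 chromosomes, each sharing at least 100 bp at 90% identity with another. They included peaks nearest to Slc12a3, the salt transporter gene of the DCT, to Syp and to Ccr1. None held a RefSeq tRNA gene. In all, 37 members fell into 9 such families, found after the values had been seen.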
